A study of Mus musculus with 6 samples.

Results

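Fibroblast growth factor (FGF) ligands, their receptors and the genes that feed back on FGF signaling were described in cultured mouse dermal fibroblasts with and without a stabilized form of β-catenin, the intracellular effector of canonical Wnt signaling. Members were chosen by gene symbol: every gene named Fgf followed by a number, the 4 receptors Fgfr1 to Fgfr4 and the receptor-like gene Fgfrl1, the Sprouty (Spry) and Spred genes, the MAP kinase phosphatase genes Dusp4, Dusp5 and Dusp6, and the ETS transcription factor genes Etv1, Etv4 and Etv5. This gave 39 genes of the 41126 in the all-gene table, and 29 of the 39 had enough fragments to be tested. The rule uses names and no measured value, but it was chosen with earlier results of these data known.

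RNA sequencing was carried out on 6 fibroblast cultures, 3 labelled Control and 3 labelled GOF (gain of function), taken from the skin of mice at postnatal day 4, of mixed CD1 and C57Bl6 strain. GOF cultures carried Ctnnb1 delta ex3/+ after adenovirus Cre (AdCre), which removes exon 3 of 1 allele of the β-catenin gene and with it the sites that mark the protein for degradation. Control cultures received adenovirus GFP (AdGFP) and are labelled +/+, whereas the study's methods describe them as carrying the same unrecombined transgene. The treatment field of all 6 labels, Control included, names AdCre at a multiplicity of infection between 366 and 500 for 6 hours without serum. These 6 hours are the length of the infection, and the study took RNA at a later time. Its methods give a multiplicity of 366 for AdGFP and 366 to 500 for AdCre, so the dose of virus may also have differed between the groups. All cultures were grown in medium with 10% fetal bovine serum. Cre came from the virus, so recombination was not restricted to a cell type by a promoter. Virus, labelled genotype and stabilized β-catenin differed together between the groups, and their effects cannot be told apart. The cultures came from 4 animals: 1 animal gave Control replicate 0 and GOF replicate 2, another gave Control replicate 2 and GOF replicate 0, and the remaining Control and GOF cultures came from 1 animal each. P-values therefore measure the spread between these few cultures. All of the values are from cells growing in serum, which itself carries growth factors.

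Secreted FGF ligands bind receptor tyrosine kinases at the cell surface together with heparan sulphate chains, and the receptors pass the signal through adaptor proteins to the Ras and ERK kinases. ERK activity turns on ETS transcription factor genes and also genes whose products dampen the pathway, among them the Sprouty and Spred proteins and the MAP kinase phosphatases. In skin, dermal fibroblasts make several FGF ligands that are read by receptors on the overlying epithelium, while the fibroblasts carry mainly other receptor forms themselves.

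The libraries held between 35980831 and 42834467 fragments, and no pair of replicates was alike within counting noise. Ctnnb1 itself stood at 267 ± 16.3 FPKM in Control and 263 ± 28.8 FPKM in GOF (SD, n = 3), a gene-level value that does not show the loss of 1 exon. FPKM are fragments scaled to transcript length and library size, and they are used below for levels. Axin2, a direct transcriptional target of β-catenin, stood at 0.144, 0.136 and 0.177 FPKM in the Control libraries (replicates 0, 1 and 2, the order kept throughout) and at 19.2, 14.4 and 18.7 FPKM in the GOF libraries, in the direction of the labels. The summed level of 8 fibroblast markers ran from 3040 to 3880 FPKM in Control and from 2530 to 3130 FPKM in GOF. At the threshold given below, Dcn and Col1a2, a proteoglycan and a collagen chain, were lower in GOF. None of the 8 was higher at that threshold, and 6 passed it in neither direction. Of those 6, mean FPKM was higher in GOF for Vim (798 and 1340), Dpt (77.3 and 115) and Thy1 (321 and 404). It was lower for Pdgfra (53.9 and 30.8) and Lum (145 and 69.1), and 166 in both groups for Col1a1. The keratinocyte genes Krt5 and Krt14 did not pass 0.0700 FPKM in any library, although the summed level of the 8 keratinocyte markers was 0.500 to 0.699 FPKM in Control and 2.96 to 6.88 FPKM in GOF, carried by the desmosome gene Dsp. The 6 skeletal muscle markers summed to 23.4 to 27.4 FPKM in Control and 138 to 172 FPKM in GOF, carried by the actin gene Acta1, while the defining genes Myod1, Myog and Ckm stayed at or below 0.131 FPKM. Adipocyte markers summed to 7.18 to 8.95 FPKM in Control and 1.80 to 3.17 FPKM in GOF, nearly all of it Fabp4, with Lep at 0 in every library and Adipoq at most at 0.0946 FPKM. For 6 macrophage markers the sums were 13.3 to 22.7 FPKM in Control and 10.3 to 28.6 FPKM in GOF, with Csf1r higher in GOF and the pan-leukocyte gene Ptprc at most at 0.0862 FPKM. For 6 endothelial markers they were 4.37 to 4.57 FPKM and 2.70 to 6.6 FPKM, with Kdr higher and Tek lower in GOF. For 6 Schwann cell and melanocyte markers they were 1.24 to 4.62 FPKM and 1.22 to 4.09 FPKM. The 6 pericyte and smooth muscle markers summed to 1570 to 2180 FPKM in Control and 1810 to 3380 FPKM in GOF. Nearly all of that sum was the actin gene Acta2, at a mean of 1780 FPKM in Control and 2390 FPKM in GOF. Myh11 reached at most 25.3 FPKM, and Rgs5, Cspg4, Notch3 and Des stayed at or below 3.39 FPKM in every library. The part of these differences in the results below was not tested, and in bulk RNA fewer cells of a type and less RNA per cell cannot be told apart.

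To ask which FGF genes differed between the groups, GOF was compared with Control by edgeR's quasi-likelihood test over all genes. A gene was called where its Benjamini-Hochberg adjusted p was under 0.05 and its fold change over 2. Among the 29 tested genes of the pathway, 4 were higher in GOF (Fgf13, Dusp4, Dusp5 and Etv4), 2 were lower (Fgf7 and Fgf10) and 23 were not called. Of all 15462 genes tested, 12.3% were called, 6.69% higher and 5.64% lower, against 20.7% of the FGF genes tested. At an adjusted p under 0.05 with no requirement on fold, Etv5 and Spred3 joined the higher genes and Fgfrl1 the lower ones, where 21.2% of all genes tested passed, 11.1% higher and 10.2% lower. The adjusted p of Etv5 was 0.05 or more in 10 of 16 alternative fits, up to 0.150, that of Spred3 in 4, up to 0.0857, and that of Fgfrl1 in 1, at 0.0501. The median log2 fold change of the tested FGF genes was 0.42, and that of all genes tested was -0.02. In FPKM, the groups did not overlap for 10 genes higher in GOF and 3 genes lower, and they overlapped for 16, while 39.5% of all genes tested did not overlap, 20.3% higher and 19.2% lower. In this fit the called genes that fell were both paracrine ligands, and those that rose were 2 phosphatases, an ETS factor and the intracellular factor Fgf13. With the animal as a block, a paracrine ligand, Fgf9, was also called higher and the ETS factor Etv4 was not called, and 6 of the 8 tested paracrine ligands had a fitted value above 0 without the block.

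**Figure D1:**
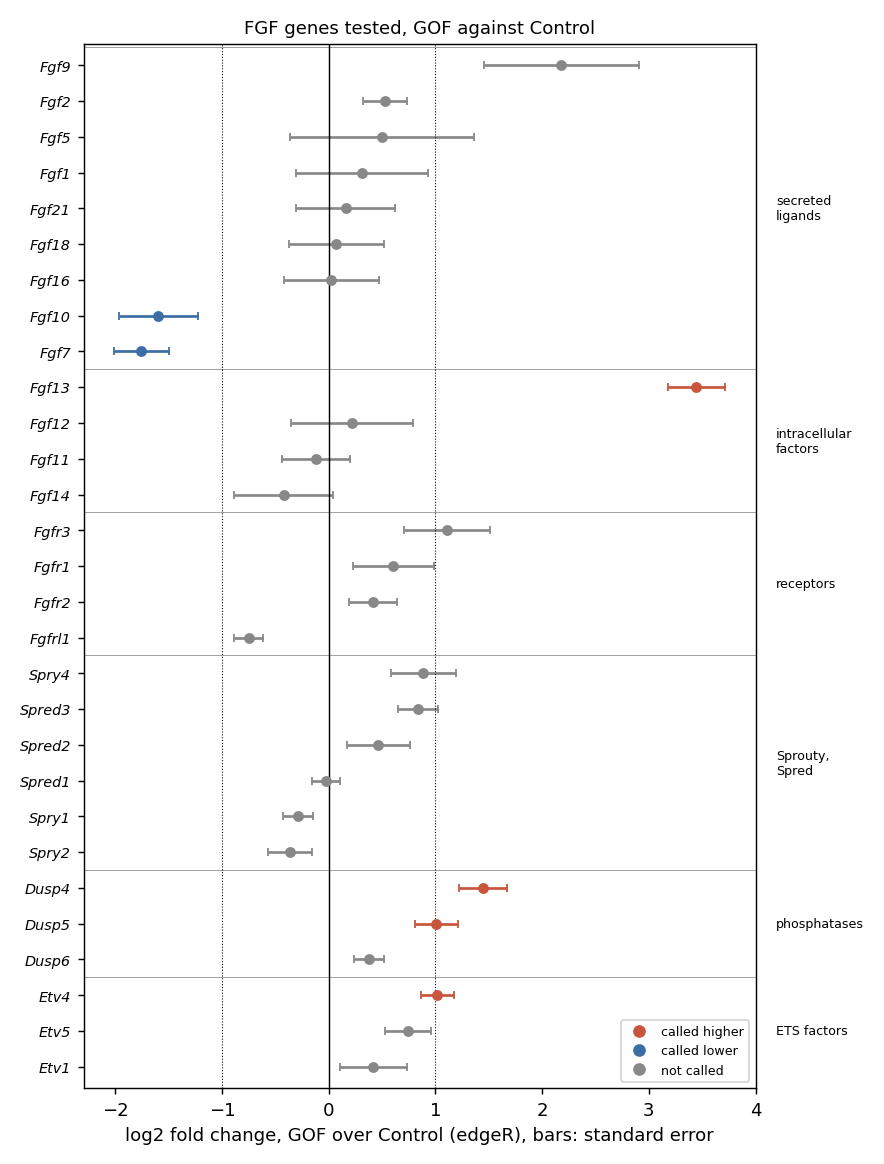
Log2 fold change of GOF over Control (horizontal axis, edgeR) for the 29 tested genes, grouped by role, with bars for the standard error, dotted lines at a 2-fold difference and called genes in color. Fgf13 lies farthest to the right at 3.44, and Fgf7 and Fgf10 lie farthest to the left at -1.76 and -1.60.

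Among the 15 genes for paracrine ligands, those that act on nearby cells, 8 were tested, 2 fell and none rose at this threshold. Of all genes tested, 5.64% fell and 6.69% rose. Most of the ligand signal in Control came from Fgf7. Fgf7, or keratinocyte growth factor, is made by mesenchymal cells and acts on epithelial cells, and it lies at chr2:126034658-126091185 on the plus strand (mm10). Its level was 87.5, 96.4 and 121 FPKM in Control and 29.5, 32.5 and 18.1 FPKM in GOF. Every GOF library lay below every Control library, and the lowest culture of each group came from the same animal. The log2 fold change was -1.76 ± 0.25 (SE), a 3.38-fold lower count with a 95% confidence interval of -2.35 to -1.16 on the log2 scale (edgeR, adjusted p = 0.00347). The fall was also present within each animal that gave both cultures, with log2 ratios of GOF over Control of -1.78 and -2.35.

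Fgf10, a close relative of Fgf7 that binds the same epithelial receptor form and is needed for limb and lung budding, lies at chr13:118669791-118792115 on the plus strand. Its level was 2.02, 6.57 and 3.98 FPKM in Control and 1.34, 1.39 and 1.35 FPKM in GOF. The GOF libraries lay close together below all Control libraries, and the Control libraries spread widely, with replicate 0 nearest to GOF. Fgf10 was 3.03-fold lower in GOF, with a log2 fold change of -1.60 ± 0.37 (SE) (edgeR, adjusted p = 0.0217). Within the animals that gave both cultures the log2 ratios were -1.53 and -0.76. The call was lost when 1 library was left out: the edgeR adjusted p was 0.0527 without Control replicate 1, where the log2 fold change was -1.15. It was 0.0841, 0.0591 and 0.0594 without GOF replicates 0, 1 and 2, where the log2 fold changes of -1.59, -1.68 and -1.52 stayed near the value with all libraries.

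The bases before the RefSeq start of both falling ligands are shown because their transcripts fell together in GOF. They are RefSeq promoter windows on build GRCm38.p6 (the assembly that mm10 denotes), read 5′ to 3′ on the plus strand, at chr2:126034408-126034657 for Fgf7 and chr13:118714449-118714698 for Fgf10, with the RefSeq transcript starting at the base after the last. For Fgf10 that start lies inside the GENCODE gene interval given above, downstream of its first base.
Fgf7: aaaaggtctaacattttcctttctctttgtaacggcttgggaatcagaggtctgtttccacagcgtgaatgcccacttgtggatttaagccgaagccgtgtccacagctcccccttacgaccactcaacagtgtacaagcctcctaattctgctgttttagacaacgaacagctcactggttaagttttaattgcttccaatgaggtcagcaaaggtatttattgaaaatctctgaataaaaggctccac
Fgf10: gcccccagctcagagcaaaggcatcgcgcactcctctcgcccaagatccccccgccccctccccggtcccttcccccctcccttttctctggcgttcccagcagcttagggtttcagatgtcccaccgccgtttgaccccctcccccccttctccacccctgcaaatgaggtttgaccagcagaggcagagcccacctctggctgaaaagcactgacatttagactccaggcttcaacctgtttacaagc
The Fgf7 window was 43.6% G and C with 6 CpG dinucleotides, and the Fgf10 window 61.2% with 8, beside a median of 52.4% and 6 CpG over all 32851 promoter windows of the table. The TCF/LEF core CTTTGAT, the letters bound by β-catenin's DNA-binding partners, was searched on both strands (reverse complement ATCAAAG) in the 300-base windows that also run past the start. It was in neither window. It was present in 3.73% of all windows and in 1 of the 38 windows that belong to 29 of the FGF pathway genes, that of Fgf6, a gene at 0 in every library. Absence of these letters from so short a window says nothing of binding elsewhere.

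Fgf2, or basic FGF, is a mitogen for fibroblasts themselves. It stood at 8.29, 10.7 and 10.1 FPKM in Control and at 13.4, 20.2 and 12.8 FPKM in GOF. All GOF libraries were above all Control libraries, yet the gene did not pass the test, with a log2 fold change of 0.53 and a 95% interval of 0.05 to 1.0 (edgeR, adjusted p = 0.110). Of its exon bases, 9.44% overlap Nudt6 on the opposite strand, and the sources used here do not state whether strand was used in counting.

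Fgf9, a ligand with a role in mesenchymal growth, varied widely between libraries. Its level was 0.528, 0.399 and 0.105 FPKM in Control and 1.07, 0.442 and 3.55 FPKM in GOF, from 46, 41 and 15 fragments and 104, 53 and 338 fragments. In FPKM the groups overlapped, since GOF replicate 1 lay below Control replicate 0. The log2 fold change was 2.18 ± 0.73 (SE) with a 95% interval of 0.49 to 3.87 (edgeR, adjusted p = 0.0720), and it was not called. With the animal as a block in the same edgeR test it was 2.70 (adjusted p = 0.00163), and the log2 ratios within the shared animals were 2.77 and 2.63. The call for Fgf9 thus differed between the unblocked and the blocked fit.

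The other tested paracrine ligands were low and were not called. Fgf18, a ligand of cartilage and bone growth, was at 1.20, 1.61 and 1.89 FPKM in Control and 1.78, 0.713 and 2.54 FPKM in GOF, with a log2 fold change of 0.07 and a 95% interval of -0.96 to 1.10. Fgf5, known for ending the growth phase of hair follicles, was at 0.731, 0.267 and 0.0969 FPKM in Control and 0.174, 0.268 and 1.14 FPKM in GOF. Its log2 fold change was 0.50 with a 95% interval of -1.50 to 2.50. Its highest culture in each group came from the same animal, the one whose GOF culture was also highest for Fgf9. Fgf16 did not pass 0.257 FPKM in any library and had a log2 fold change of 0.03 with a 95% interval of -1.01 to 1.06. The intervals of Fgf18, Fgf5 and Fgf16 reach past a 2-fold change, so that such a change is not excluded. Fgf1, or acidic FGF, did not pass 0.138 FPKM and had a log2 fold change of 0.31 by fragments although its mean FPKM was 0.103 in Control and 0.0689 in GOF, since the fragments behind 1 FPKM of this gene varied 11.5-fold between libraries, against 1.13-fold for the median gene. No direction is given for Fgf1.

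**Figure D2:**
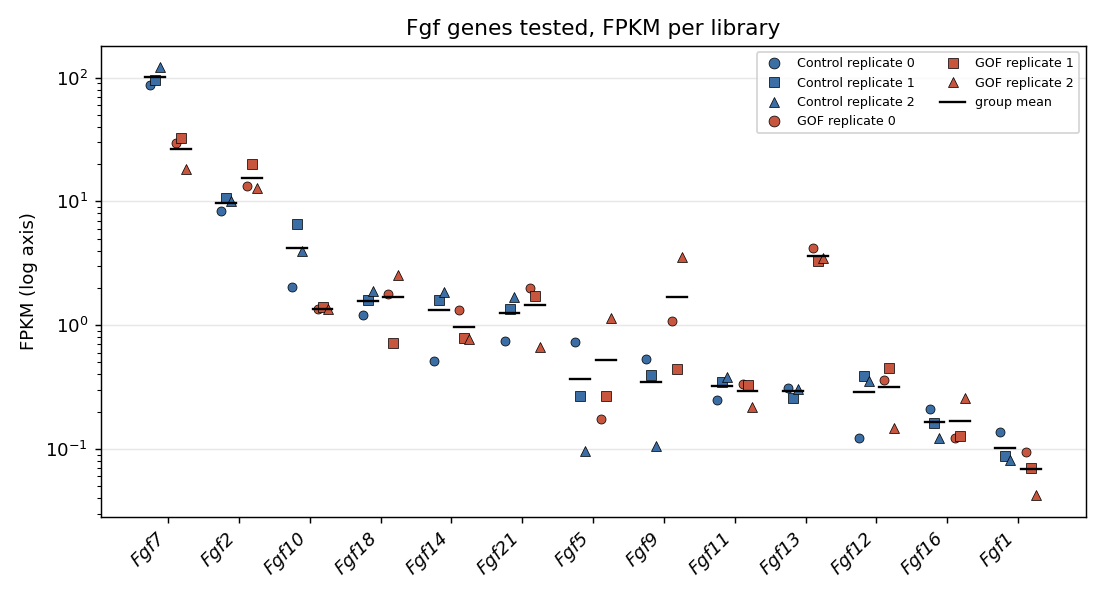
FPKM on a log axis for the tested Fgf genes, with a point per library and the mean of each group. Fgf7 is the highest ligand in both groups and falls from a mean of 102 to 26.7 FPKM, and Fgf13 goes from 0.292 to 3.65 FPKM.

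The proportions of the secreted ligands differed between the groups. In Control the mean FPKM ran from Fgf7 at 102 through Fgf2 at 9.69 and Fgf10 at 4.19 to Fgf18 at 1.57 and Fgf21 at 1.26, where the last 2 overlapped in their libraries. In GOF Fgf7 at 26.7 still led Fgf2 at 15.5, and the 3 GOF libraries of Fgf7, the lowest at 18.1 FPKM, overlapped those of Fgf2, the highest at 20.2 FPKM, although Fgf7 was the higher within each library. Fgf9 at 1.69, Fgf18 at 1.68, Fgf21 at 1.46 and Fgf10 at 1.36 FPKM followed in GOF, and their libraries overlapped. The FPKM of all secreted Fgf genes summed to 102, 118 and 139 in Control and to 49.6, 57.5 and 40.5 in GOF, groups that did not overlap. Fgf7 took 86.2%, 81.9% and 86.9% of that sum in Control and 59.4%, 56.5% and 44.7% in GOF. Fgf2 took 8.17%, 9.09% and 7.25% in Control and 27.0%, 35.1% and 31.6% in GOF. The share of Fgf2 was thus higher in every GOF library although the gene itself was not called. These shares are descriptions, with no test.

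**Figure D3:**
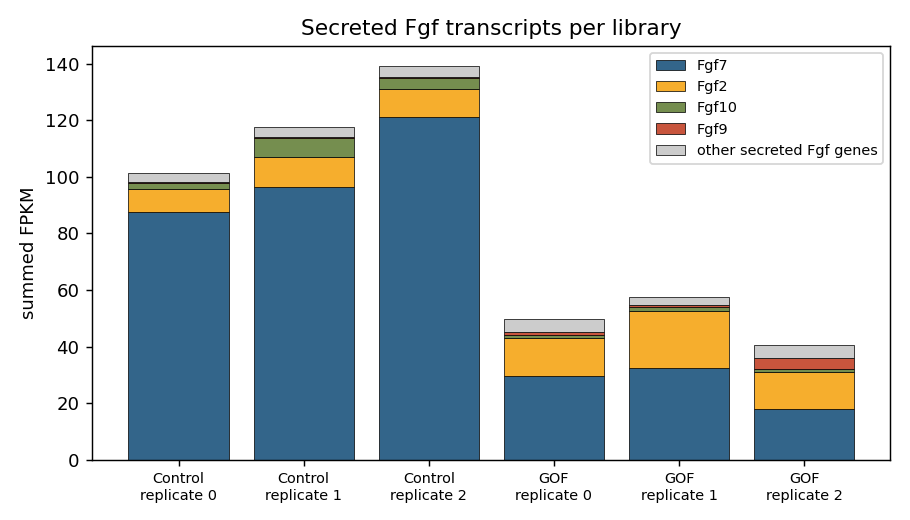
Summed FPKM of the secreted Fgf genes in each of the 6 libraries, stacked by gene from 0. The Control bars reach 102 to 139 FPKM and the GOF bars 40.5 to 57.5 FPKM, with Fgf7 as the largest block in each.

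Of the 3 endocrine ligands, which travel in the blood and need a Klotho co-receptor, only Fgf21 was tested. This hormone of fasting stood at 0.739, 1.34 and 1.70 FPKM in Control and 2.0, 1.73 and 0.660 FPKM in GOF, with a log2 fold change of 0.16 and a 95% interval of -0.92 to 1.24. Its co-receptor gene Klb did not pass 0.0296 FPKM. Fgf3, Fgf4, Fgf6, Fgf8, Fgf15, Fgf17, Fgf20, Fgf22, Fgf23 and the receptor gene Fgfr4 were the 10 genes not tested, with at most 3 fragments and 0.166 FPKM in any library. Of these, Fgf3, Fgf6, Fgf8 and Fgf15 were at 0 fragments in every library, which at these depths allows up to 3 fragments a library and does not show absence. This limit of 3 fragments covers counting error only, unlike the 95% interval of Fgf21, which also takes in the spread between cultures.

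The FGF homologous factors resemble the ligands in sequence but stay inside the cell, where they bind voltage-gated sodium channels. All 4 were tested, and 1 of them, Fgf13, changed most of all 29 genes. Fgf13, which has also been described as a microtubule-binding protein, lies at chrX:59062145-59568071 on the minus strand. Its level was 0.309, 0.259 and 0.306 FPKM in Control and 4.19, 3.30 and 3.46 FPKM in GOF, from 28, 30 and 19 fragments and 335, 280 and 262 fragments. The groups were far apart and each was tight in FPKM. The fragments behind 1 FPKM of Fgf13 varied 1.81-fold between libraries, against 1.13-fold for the median gene. GOF was 10.9-fold higher, a log2 fold change of 3.44 ± 0.27 (SE) with a 95% interval of 2.82 to 4.07 (edgeR, adjusted p = 0.000347), and the log2 ratios within the shared animals were 4.12 and 2.97.

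Its 3 relatives gave no call in either direction. Fgf11 stood between 0.218 and 0.380 FPKM over all libraries with a log2 fold change of -0.12 and a 95% interval of -0.86 to 0.61. Fgf12 had a log2 fold change of 0.22 and an interval of -1.10 to 1.54, and its lowest library in each group, at 0.122 and 0.147 FPKM, came from the same animal. Fgf14 was at 0.515, 1.6 and 1.85 FPKM in Control and 1.32, 0.790 and 0.778 FPKM in GOF, a log2 fold change of -0.42 with an interval of -1.5 to 0.65. These intervals reach past a 2-fold change in at least 1 direction for Fgf12 and Fgf14, so that such a change is not excluded, while for Fgf11 they do not.

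None of the 4 receptor genes tested, including Fgfrl1, was called, beside 12.3% of all genes tested. Fgfr1, the main receptor of mesenchymal cells, stood at 22.1, 37.0 and 48.2 FPKM in Control and 77.0, 63.2 and 27.5 FPKM in GOF. The lowest culture of each group came from the animal of Control replicate 0 and GOF replicate 2, and the GOF culture of that animal lay below 2 of the 3 Control libraries. The log2 fold change was 0.61 ± 0.38 (SE), with a 95% interval of -0.29 to 1.5 (edgeR, adjusted p = 0.304). With the animal as a block it was 0.54 ± 0.14 (SE; edgeR, adjusted p = 0.0369), past the adjusted p and under 2-fold. Without both cultures of that animal it was 0.66 (edgeR, adjusted p = 0.0163, chosen after the values were seen), still under 2-fold, and within the shared animals the log2 ratios were 0.68 and 0.39.

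Fgfr2, whose mesenchymal and epithelial splice forms are not told apart at the gene level, stood at 3.96, 5.70 and 6.85 FPKM in Control and 8.94, 7.75 and 7.24 FPKM in GOF. The groups did not overlap in FPKM and overlapped in fragments, and the log2 fold change was 0.42 (edgeR, adjusted p = 0.229). Of the Fgfr2 exon bases, 3.04% overlap the protein-coding gene Ctbp2 on the same strand, which the use of strand in counting would not separate. Fgfr3, a brake on bone growth, was far lower, at 0.143, 0.0984 and 0.143 FPKM in Control and 0.309, 0.255 and 0.371 FPKM in GOF. Its log2 fold change of 1.11 ± 0.40 (SE) did not pass the test (edgeR, adjusted p = 0.0923), and 13.9% of its exon bases overlap a gene on the opposite strand. The fragments behind 1 FPKM of Fgfr3 varied 1.98-fold between libraries. In both groups the mean FPKM ran from Fgfr1 at 35.8 and 55.9 through Fgfr2 at 5.50 and 7.97 to Fgfr3 at 0.128 and 0.312.

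Fgfrl1, at chr5:108692382-108706924 on the plus strand, encodes a receptor-like protein that binds FGFs but lacks the kinase domain. It stood at 10.3, 9.76 and 10.1 FPKM in Control and 5.56, 6.59 and 6.67 FPKM in GOF. All GOF libraries were below all Control libraries, and both groups were tight. The log2 fold change of -0.75 ± 0.14 (SE), 1.68-fold lower, passed the adjusted p but not the 2-fold limit (edgeR, adjusted p = 0.00820).

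The window before the RefSeq start of Fgfrl1, a start inside the gene interval above, is shown because it was the only one among the 38 to hold the ETS core CCGGAAG on either strand (reverse complement CTTCCGG), which 8.86% of all 32851 windows hold. It is at chr5:108693979-108694228, plus strand, build GRCm38.p6, from RefSeq, and capitals mark the core, which begins 48 bases before the start. This window was picked after the search result was known.
Fgfrl1: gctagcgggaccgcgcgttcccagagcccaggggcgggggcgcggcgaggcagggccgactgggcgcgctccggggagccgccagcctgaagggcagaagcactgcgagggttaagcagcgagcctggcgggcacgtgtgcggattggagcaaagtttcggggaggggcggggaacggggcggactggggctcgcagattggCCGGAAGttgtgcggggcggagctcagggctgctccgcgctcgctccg
It was 73.6% G and C with 30 CpG dinucleotides. The match is a description of letters.

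The 6 Sprouty and Spred genes encode inhibitors that act on the pathway between receptor and ERK. None of them was called, beside 12.3% of all genes tested. Spry1 stood at 47.3, 47.8 and 40.8 FPKM in Control and 42.4, 34.6 and 37.6 FPKM in GOF, a log2 fold change of -0.29 with a 95% interval of -0.62 to 0.04. Spry2 stood at 42.6, 46.7 and 50.3 FPKM in Control and 42.8, 40.9 and 25.2 FPKM in GOF, with a log2 fold change of -0.37 and an interval of -0.85 to 0.12. Both were thus abundant, and their intervals exclude a 2-fold difference in either direction. Of the Spry1 exon bases, 24.4% overlap a gene annotated on the opposite strand.

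Spry4 was far lower in level than both and had a fitted difference of the opposite sign. It stood at 0.814, 0.918 and 1.07 FPKM in Control and 2.22, 2.02 and 0.996 FPKM in GOF, so that GOF replicate 2 lay among the Control libraries and the others above them. The log2 fold change was 0.89 ± 0.31 (SE; edgeR, adjusted p = 0.0806). Without GOF replicate 2 it was 1.17 (edgeR, adjusted p = 0.00863) and was called, and without both cultures of that animal 1.09 (edgeR, adjusted p = 0.00586). Within the shared animals the log2 ratios were 1.08 and 0.25.

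Spred1, whose product keeps Ras signaling in check through neurofibromin, was the steadiest inhibitor, at 18.7, 21.0 and 21.8 FPKM in Control and 19.8, 20.1 and 18.8 FPKM in GOF. Its 95% interval of -0.33 to 0.27 on the log2 scale was the narrowest of the 6. Spred2 stood at 3.54, 1.79 and 2.17 FPKM in Control and 3.61, 2.69 and 2.15 FPKM in GOF, a log2 fold change of 0.47 with an interval of -0.22 to 1.15. Spred3 stood at 2.23, 2.68 and 3.14 FPKM in Control and 5.30, 4.77 and 3.69 FPKM in GOF, with no overlap. Its log2 fold change of 0.84 ± 0.19 (SE), 1.79-fold, passed the adjusted p alone (edgeR, adjusted p = 0.0197).

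**Figure D4:**
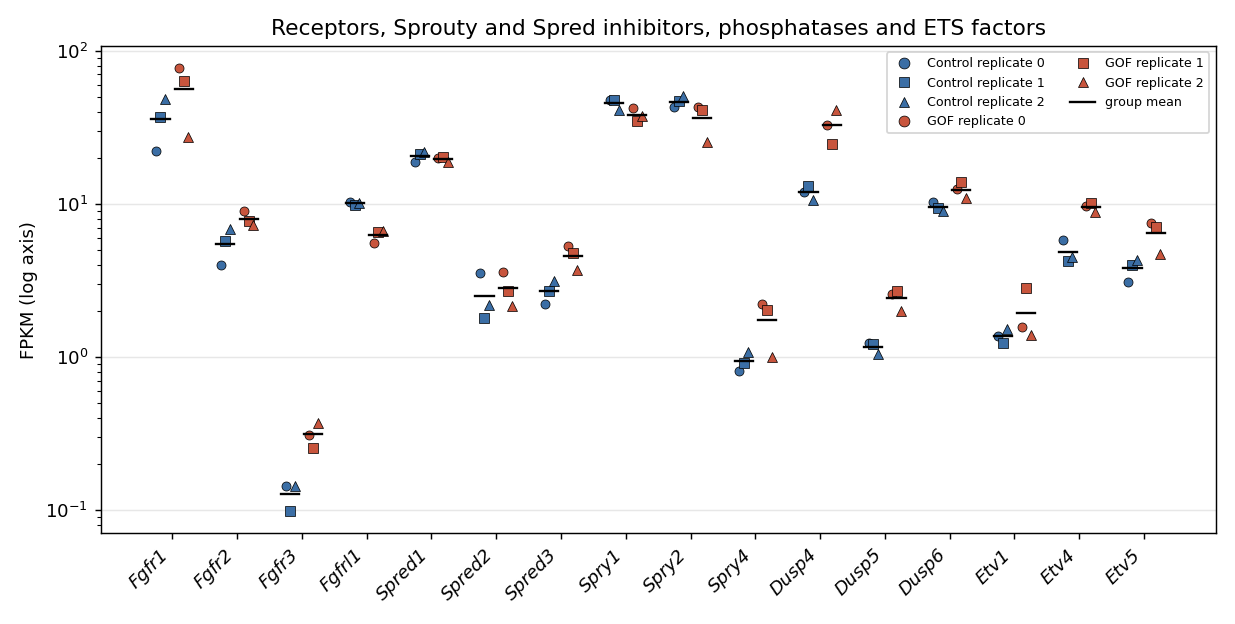
FPKM on a log axis for the receptor, inhibitor, phosphatase and ETS factor genes, with a point per library and the mean of each group. The 2 groups lie apart for Dusp4 (means of 11.9 and 32.9 FPKM) and Etv4 (4.86 and 9.55 FPKM) and lie on each other for Spred1 (20.5 and 19.5 FPKM).

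The Dusp genes encode phosphatases that take phosphate off MAP kinases, and all 3 were above Control in every GOF library (20.3% of all genes tested were) and 2 were called (6.69% of all genes tested were called higher). Dusp4, a nuclear phosphatase of ERK and related kinases, lies at chr8:34807297-34819894 on the plus strand. Its level was 12.0, 13.0 and 10.6 FPKM in Control and 32.8, 24.6 and 41.2 FPKM in GOF. The lowest GOF library was well above the highest Control library, and the GOF libraries spread more. Dusp4 was 2.72-fold higher in GOF, a log2 fold change of 1.44 ± 0.22 (SE) with a 95% interval of 0.92 to 1.96 (edgeR, adjusted p = 0.00456), and the log2 ratios within the shared animals were 1.64 and 1.78.

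Dusp5, a nuclear phosphatase specific to ERK, lies at chr19:53529109-53542431 on the plus strand. Its level was 1.23, 1.22 and 1.05 FPKM in Control and 2.58, 2.68 and 2.0 FPKM in GOF, with no overlap and GOF replicate 2 the nearest to Control. Dusp5 was 2.01-fold higher in GOF, a log2 fold change of 1.01 ± 0.20 (SE) (edgeR, adjusted p = 0.0123), and within the shared animals the log2 ratios were 1.31 and 0.69. This value sits on the 2-fold limit, and 22.1% of the exon bases of Dusp5 overlap an antisense gene, AC137853.2. Leaving out Control replicate 1, Control replicate 2 or GOF replicate 0 ended the call, with edgeR adjusted p-values of 0.0544, 0.0524 and 0.0538 at log2 fold changes of 1.04, 0.92 and 0.96. Without GOF replicate 1 the adjusted p held (edgeR, 0.0383) and the log2 fold change of 0.97 was under the 2-fold limit.

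The bases before the Dusp5 start are shown as those of a called gene whose window held a pair of CArG boxes, the letters bound by serum response factor, a partner of ETS factors at ERK-responsive genes. They are at chr19:53528895-53529108, plus strand, build GRCm38.p6, from RefSeq, cut before the first annotated exon, and capitals mark the boxes, which lie end to end and begin 82 and 72 bases before the RefSeq start.
Dusp5: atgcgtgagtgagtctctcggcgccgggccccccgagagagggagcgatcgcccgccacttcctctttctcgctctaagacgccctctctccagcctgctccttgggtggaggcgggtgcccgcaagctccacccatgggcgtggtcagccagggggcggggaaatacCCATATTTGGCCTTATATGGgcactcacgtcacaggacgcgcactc
The CArG box was added to the search after this sequence had been read. Of all 32851 windows 1.63% held one, and of the 38 windows of FGF pathway genes Dusp5's did and no other. Dusp4 and Etv4 had no entry in the promoter table.

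Dusp6, the cytoplasmic ERK phosphatase that is a standard readout of FGF signaling, moved least of the 3. It stood at 10.2, 9.39 and 8.99 FPKM in Control and 12.5, 13.8 and 10.9 FPKM in GOF. The groups did not overlap, but the log2 fold change of 0.37 ± 0.14 (SE) did not pass the test, with a 95% interval of 0.05 to 0.70 that excludes a 2-fold rise (edgeR, adjusted p = 0.10). Within the shared animals the log2 ratios were 0.50 and 0.04.

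Etv1, Etv4 and Etv5 form the PEA3 group of ETS factors, which act downstream of FGF receptors. Etv4 lies at chr11:101769742-101785371 on the minus strand and stood at 5.80, 4.26 and 4.52 FPKM in Control and 9.71, 10.1 and 8.80 FPKM in GOF. Both groups were tight and did not overlap. Etv4 was 2.03-fold higher in GOF, a log2 fold change of 1.02 ± 0.15 (SE) with a 95% interval of 0.66 to 1.37 (edgeR, adjusted p = 0.00387). With the animal as a block it was 0.92 (edgeR, adjusted p = 0.0201), under the 2-fold limit, and within the shared animals the log2 ratios were 1.14 and 0.70. It also dropped under the limit without Control replicate 1 (0.95), without Control replicate 2 (0.97) and without GOF replicate 1 (0.97), with the edgeR adjusted p below 0.05 in each.

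Etv5 stood at 3.07, 3.99 and 4.31 FPKM in Control and 7.46, 7.09 and 4.73 FPKM in GOF, with no overlap. Its log2 fold change of 0.74 ± 0.21 (SE), 1.67-fold, passed the adjusted p alone (edgeR, adjusted p = 0.0449). Etv1 stood at 1.37, 1.23 and 1.52 FPKM in Control and 1.56, 2.82 and 1.39 FPKM in GOF, with overlap, and had a log2 fold change of 0.42 and an interval of -0.32 to 1.15. GOF replicate 1 alone stood above the other libraries of Etv1.

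Across the FGF genes, the animal that gave Control replicate 0 and GOF replicate 2 stood apart, and it also did so over all genes compared. Chi-square per degree of freedom, a measure of disagreement between replicates, was 145.7 and 195.4 for pairs with Control replicate 0. It was 25.23 for the other Control pair. For pairs with GOF replicate 2 it was 133.9 and 135.5, against 61.75 for the other GOF pair. How many of all genes were lowest or highest in both cultures of this animal was not counted. Both of its cultures were the lowest of their groups for 13 of the 29 tested genes, among them Fgf7, Fgf2, Fgfr1, Fgfr2, Spry2, Spry4 and Etv5, and the highest of their groups for 5, namely Fgf5, Fgf9, Fgf16, Fgfr3 and Fgfrl1. The cultures of the other shared animal were the highest of their groups for 9 genes and the lowest for 2. Without both cultures of the first animal, 5 of the FGF genes were higher and 2 lower, and Fgf13, Dusp4, Dusp5, Etv4, Fgf7 and Fgf10 each kept their call.

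The remaining genes of the pathway were read from 5 lists chosen by known function, with earlier results of these data known. Their counts stand beside the 12.3% of all genes tested that were called, 6.69% higher and 5.64% lower. Of 8 FGF co-receptors and binding proteins, 5 were tested and 1 rose, and their median log2 fold change was 0.83. The 1 was Flrt3, a membrane protein that interacts with FGF receptors, at 1.46, 1.63 and 1.96 FPKM in Control and 7.78, 5.66 and 11.9 FPKM in GOF, with no overlap and a log2 fold change of 2.31 (edgeR, adjusted p = 0.000945). Of 23 receptor adaptors and Ras-ERK cascade genes, all tested, 1 rose and none fell, a smaller share than the 12.3% over all genes, with a median of 0.16. That gene was Rps6ka2, encoding a kinase activated by ERK, at 4.72 ± 0.523 FPKM in Control and 16.1 ± 2.97 FPKM in GOF (SD, n = 3), a log2 fold change of 1.74 (edgeR, adjusted p = 0.000684).

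Of 16 genes for heparan sulphate synthesis and editing, 14 were tested, 2 rose and 1 fell, beside 6.69% and 5.64% of all genes tested, with a median of 0.26. Sulf1, an extracellular enzyme that removes 6-O-sulphate from heparan sulphate, rose from 53.2 ± 2.60 FPKM to 117 ± 1.51 FPKM (SD, n = 3), a log2 fold change of 1.20 (edgeR, adjusted p = 0.000983). Hs6st1, an enzyme that adds 6-O-sulphate, fell from 18.8 ± 4.36 FPKM to 6.72 ± 0.346 FPKM, a log2 fold change of -1.52 (edgeR, adjusted p = 0.00180). Hs3st1, which adds 3-O-sulphate, rose from 4.24 ± 1.20 FPKM to 20.9 ± 9.0 FPKM, a log2 fold change of 2.29 (edgeR, adjusted p = 0.00524). The more abundant 6-O-sulphate writer, Hs6st2, stood at 58.8 ± 7.25 FPKM in Control and 68.0 ± 17.8 FPKM in GOF and was not called (log2 fold change 0.29, edgeR, adjusted p = 0.252), nor was the other eraser, Sulf2, at 28.1 ± 11.1 and 44.8 ± 16.2 FPKM (0.69, adjusted p = 0.223). Both were named after their values were seen.

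Of 8 other MAP kinase phosphatase genes, 7 were tested, 3 rose and none fell, beside 6.69% and 5.64% of all genes tested, and the median log2 fold change was 0.93. They were Dusp10 (1.23, edgeR adjusted p = 0.00239), Dusp9 (1.75, adjusted p = 0.00681) and Dusp14 (1.12, adjusted p = 0.00751). Dusp9 was low, at 0.412 ± 0.0831 FPKM in Control and 1.46 ± 0.508 FPKM in GOF, and Dusp10, which prefers the stress kinases p38 and JNK, went from 2.51 ± 0.197 to 5.90 ± 0.753 FPKM (SD, n = 3).

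The ERK-responsive immediate early genes split. Of 11, 10 were tested, 3 rose and 4 fell, beside 6.69% and 5.64% of all genes tested, with a median log2 fold change of 0.03. Fosl1, encoding the AP-1 subunit Fra1, rose by 1.88 (edgeR, adjusted p = 0.00181) and Phlda1 by 1.65 (adjusted p = 0.00326). Egr2 fell by 1.95 (edgeR, adjusted p = 0.00222), Egr1 by 1.75 (adjusted p = 0.00331), Ier2 by 1.44 (adjusted p = 0.00280) and Fos by 1.14 (adjusted p = 0.00362), all on the log2 scale. The remaining riser was Ier3 at 1.05 (edgeR, adjusted p = 0.00481), named beyond the limit of 6 genes a list. Egr1, a zinc finger factor induced within minutes of growth factor addition, stood at 8.93, 6.82 and 6.89 FPKM in Control and 2.65, 2.80 and 1.58 FPKM in GOF, with no overlap. Transcripts of known ERK-responsive genes therefore did not move one way. Dusp4, Dusp5, Etv4, Fosl1, Phlda1 and Ier3 were higher in GOF, and Egr1, Egr2, Ier2 and Fos were lower. Among those not called were Dusp6, Spry1, Spry2, Myc, Srf and Mcl1.

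**Figure D5:**
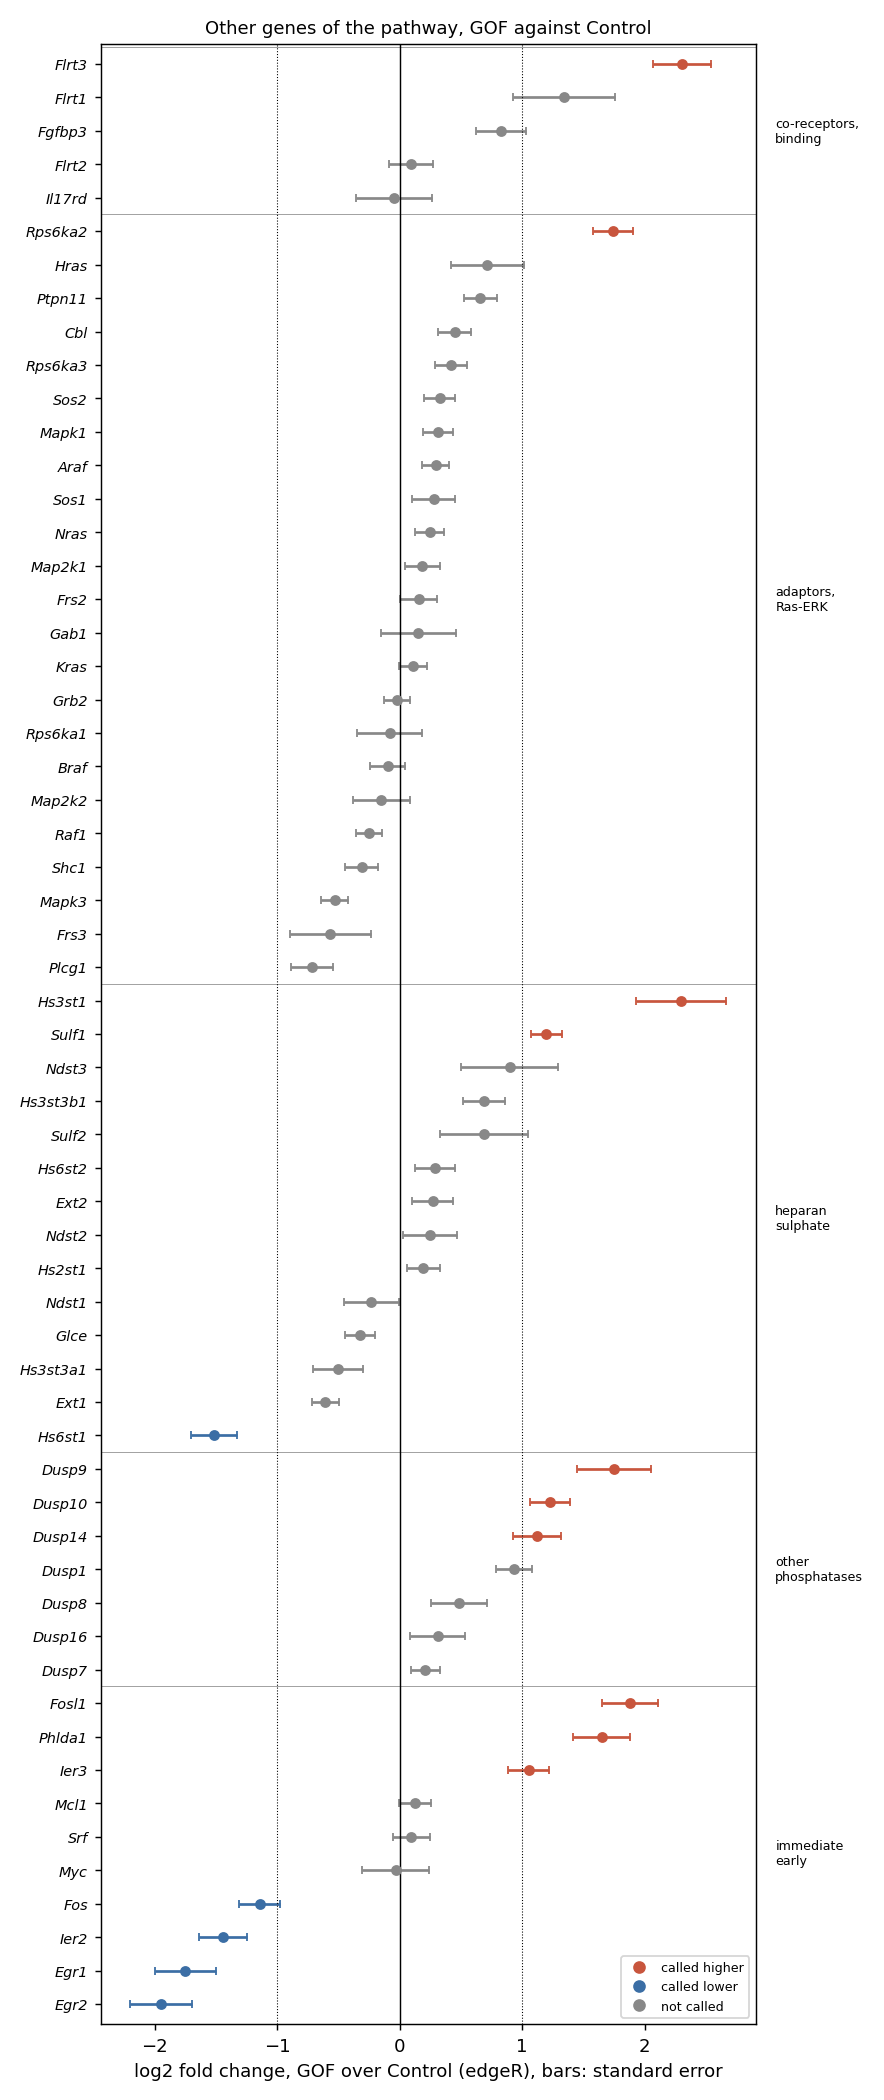
Log2 fold change of GOF over Control (horizontal axis, edgeR) for all tested genes of the 5 other lists of pathway genes, with bars for the standard error, dotted lines at a 2-fold difference and called genes in color. Flrt3 at 2.31 and Hs3st1 at 2.29 lie farthest right and Egr2 at -1.95 farthest left.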

How the data were processed

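RNA was measured in 6 cultures, 3 Control and 3 GOF. According to the labels and methods, total RNA went into Illumina TruSeq stranded libraries, and the authors aligned reads with TopHat and quantified genes with Cuffdiff on mm10 (versions, annotation release and use of strand in counting are not given in the sources used here). The deposited table holds, per gene and library, estimated counts of fragments and FPKM, and the authors' FPKM are scaled by transcript length and library. Its 6 other columns with values for single libraries stayed unused, as did a table of lncRNAs. Some estimated counts were fractions (4.95% of values) and were rounded. IDs were matched to GENCODE M21 symbols (97.9%). Spry3 is not analysed here, and 32 genes with failed estimates were left out, none of them an FGF gene.

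Fragments were tested with edgeR 4.0.16 (R 4.3.3) by the quasi-likelihood test with TMM factors and filterByExpr, with Benjamini-Hochberg adjustment over all 15462 genes tested. Genes past 0.05 in adjusted p and past 2-fold in either direction were called. Exact two-sided permutation tests on FPKM cannot go below p = 0.1 with 3 against 3 libraries. On simulated data for this comparison, with 200 of 15462 genes changed by 2 on the log2 scale, the edgeR step called 172 of them in the right direction and 12 unchanged genes. The simulated libraries were independent, without shared animals, and their changes were larger than those of Dusp5 and Etv4. The simulation thus does not bear on calls near the 2-fold limit. Alternatives were DESeq2 1.42.0, limma 3.58.1 on log2(FPKM + 1) and log2(FPKM + 0.1), other scalings and filters, blocks and left-out libraries. Deviations from group means correlated over 11914 genes at r = 0.42 and 0.52 for the cultures of the same animal, and at -0.45, 0.06 and -0.48 for those with the same replicate number, so the animals given in the labels, and not the numbers, pair the cultures.

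The FGF genes and lists were chosen with earlier results of these data known. All tested FGF genes were named, and of the other lists every called gene up to 6 a list by adjusted p. Promoters were to be shown for called genes by adjusted p, without annotated exon bases, which left out Fgf13. The Fgfrl1 window was added. Sequences are RefSeq, GRCm38.p6.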

Additional observations from a re-analysis of the deposited data

How the results depend on the processing

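Fgf13 (log2 fold change between 1.84 and 3.68), Dusp4 (1.21 to 1.71) and Fgf7 (-2.06 to -1.51) kept their calls in all 16 alternatives. Dusp5 lost its call in 9, Etv4 in 8 and Fgf10 in 5 of the 16. For Fgf10 these were limma on log2(FPKM + 1) (adjusted p = 0.0504) and the left-out libraries given above. The number of FGF genes called higher was 4 in the fit reported and 2 with library totals, upper-quartile scaling, limma on log2(FPKM + 1) and limma on log2(FPKM + 0.1). That of genes called lower was 2 and became 1 in limma on log2(FPKM + 1), where 877 genes were called in all, against 1906 in the fit reported. Leaving out each library in turn gave 2 to 5 FGF genes higher, 1 to 2 lower and 1311 to 1961 genes in all. With the replicate number as a block, 3 FGF genes were higher, 2 lower and 1421 genes called in all, and Dusp5 had an adjusted p of 0.0592. With the animal as the replicate block, 4 were higher, 2 lower and 2008 called in all, and it changed no call but those of Fgf9 and Etv4. Of the FGF genes, Fgfr1 also crossed 0.05 in adjusted p with that block.

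Fgf9 was called in DESeq2 (adjusted p = 0.00649), with no filter on low counts (0.0369) and without GOF replicate 1 (0.0451), and Fgfr3 without GOF replicate 1 (1.41, adjusted p = 0.0341). The cause was not tested. Over the 29 tested FGF genes, 23 values changed sign, all of genes that were not called. With library totals, upper-quartile scaling and the number block Fgf16 was at -0.020, -0.028 and -0.018. Fgf1 was at -0.045 and -0.26 in limma with 1 and 0.1, Fgf18 at -0.044 in limma with 0.1, at -0.065 with the number block and at -0.52 without both cultures of the animal of Control replicate 0 (an alternative chosen after seeing the data), Etv1 at -0.11 with the animal block and Spred1 at 0.025 without both cultures. With each library left out in turn, Fgf16 ran from -0.41 to 0.23, Fgf1 from -0.13 to 0.83, Fgf18 from -0.37 to 0.44, Fgf12 from -0.20 to 0.60, Fgf21 from -0.16 to 0.49, Spred1 from -0.12 to 0.062, Fgf5 from -0.70 to 1.52, Fgf11 from -0.30 to 0.060 and Ctnnb1 from -0.16 to 0.023. Of the called genes of the other lists, Ier3 lost its call in 3, Dusp14 in 2, and Dusp9, Dusp10 and Egr2 in 1 of the 16 alternatives, and none changed sign.

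With 3 cultures a group from 4 animals, and values at the gene level only, splice forms of the receptors, protein and kinase activity were not measured, and genes at 3 fragments or fewer in each library could not be compared.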
